A study of Homo sapiens with 4 samples.

Results

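The domains described here are 135 stretches of the autosomes that had been copied in a larger share of DKO1 cells than of HCT116 cells at like points of S phase. DKO1 is a cloned derivative of HCT116, a human colorectal cancer line, in which the genes of the DNA methyltransferases DNMT1 and DNMT3B were knocked out; the targeted DNMT1 gene is known to leave a shortened protein with some activity. Coordinates are those of hg19 (GRCh37), the build in the submitters' processing notes. The domains were found in single-cell replication calls, which say for each 80 kb bin of a cell whether it had been copied. Progress through S phase is measured for each cell as the share, in percent, of called bins already copied. For every bin and line, the percent of called cells in which it was replicated was taken in each 10-point stratum of progress from 20 to 80% and averaged over the 6 strata; this average is called the standardised share, and a higher share means earlier replication. A domain is a run of 5 or more consecutive bins in which every bin's share was at least 15 points higher in DKO1. Of 27643 bins with a value in all strata, 1872 (6.77%) were that much higher in DKO1, and 1382 of them (5.00%) lay in the 135 domains, which cover 111 Mb; the other 490 were in shorter runs. Kept to bins called in at least 99% of cells of both lines, the rule gave 42 domains. Leaving bins out breaks runs whatever their difference, and all 384 bins of these 42 lay in the 135 domains. The shares chose the domains, so shares and their differences between the lines are a description here and support nothing.

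The study compared DKO1 with its parent HCT116, and both groups used here are S-phase cells grown in the same medium with serum; the labels name no drug. Cells were stained and sorted by DNA content, the 3 S-phase fractions were mixed in equal numbers, and each line's mixture was made into 1 droplet copy-number library. The libraries gave 207 DKO1 cells and 322 HCT116 cells, which share no cell barcode. With 1 library per line there is no replicate of either, so the lines are described side by side with no test, and exact binomial 95% intervals cover counting error of cells only. DKO1 is a single clone grown apart from its parent, so changes it gained in culture and effects of the knockouts cannot be told apart. Replication calls carry no measure of either enzyme.

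Mammalian genomes replicate in a set order. Clusters of origins fire early in gene-rich, open chromatin, forks run outwards through timing transition regions, and compact, lamina-associated chromatin is copied late. DNMT1 restores methylation on newly copied strands and DNMT3B can methylate sites anew; the late-replicating part of cancer genomes is also where methylation is most often lost. A region can become earlier because an origin cluster inside it fires more often or because forks from an earlier neighbour reach it sooner, and the state of the flanking bins in single cells bears on how often each arrangement is seen.

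Progress had a median of 48.0% in DKO1 cells (range 9.32 to 78.0%) and 51.9% in HCT116 cells (17.0 to 76.7%). The strata from 20 to 80% held 206 DKO1 and 318 HCT116 cells; the thinnest was 70 to 80%, with 8 DKO1 and 13 HCT116 cells, and the next was 20 to 30%, with 12 DKO1 and 34 HCT116 cells. The deposited table codes each bin as 0, 1 or 2 without defining the codes. Code 2 was read as replicated because gene-dense chromosome 19 had a mean share of 73.1% in DKO1 and 68.6% in HCT116 and gene-poor chromosome 18 had 36.4% in DKO1 and 39.8% in HCT116; if the codes ran the other way, every direction below would turn. Code 0 was read as not called. Over all bins the mean difference between the lines was -0.248 points.

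The domains were mostly short. Their length ran from 0.4 to 2.64 Mb with a median of 0.720 Mb: 77 had 5 to 9 bins, 49 had 10 to 19 and 9 had 20 or more. They lay on 20 chromosomes, most on chromosomes 1 and 3 (15 each) and chromosome 2 (13). Measured against the number of bins, chromosomes 19 and 13 had the most, with 9.45 and 9.44% of their bins in domains, followed by chromosome 3 with 8.12%. Chromosome 19 is the most gene-dense chromosome and chromosome 13 one of the gene-poorest, and both were higher in DKO1 as a whole, by 4.59 and 3.86 points. The lowest shares among chromosomes with domains were on chromosome 18, with 1 domain in 0.834% of its bins, and chromosome 14, with 2 in 1.27%. No domain lay on chromosome 22, which has 163 bins with a value, or on chromosome 8, of which only 11 bins were used here. Of the domains, 45 stood in 20 groups with gaps of at most 1 Mb, and 6 of those gaps were of 2 bins or fewer, so that some runs are parts of a longer region.

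Most of these domains were late in the parental line. The mean over domains was 42.7% in DKO1 (SD over domains 14.8, range 17.3 to 88.0%) and 21.1% in HCT116 (SD 13.9, range 1.19 to 65.6%). The mean difference was 21.6 points (SD 3.81, range 15.9 to 34.6). In DKO1 the share was at or above 50% in 34 domains, against 6 in HCT116. By HCT116 share, 35 domains were under 10%, 35 from 10 to 20%, 35 from 20 to 30%, 17 from 30 to 40% and 13 at 40% or above. In 38 domains the DKO1 share was at least 3 times the HCT116 share. A bin above 85% in HCT116 could not have qualified.

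Bins late in HCT116 leaned the same way as a whole, by less, and early bins leaned the other way. Among all bins with a HCT116 share under 10% the mean difference was 7.32 points, and among the bins there that belong to no domain it was 5.78. At 10 to 20% the bins outside the domains differed by 3.10 points, at 20 to 30% by 1.52 and at 30 to 40% by -0.531. The domains' own bins differed by 22.4, 23.5, 22.9 and 22.9 points in these 4 classes, so their excess over other bins of the same timing was smallest in the latest class. Domains took 9.25, 10.8, 11.2 and 10.2% of the bins in the classes, an even share from very late to middle-late bins, then 5.16% at 40 to 50% and 2.95% at 50 to 60%. With the median difference of each HCT116 class subtracted from every bin, 113 runs met the rule, which overlapped 83 of the 135 domains. In the 10-point HCT116 classes from 40 to 100%, the mean difference over all bins was -1.46, -4.23, -5.47, -6.48, -6.49 and -3.85 points. The classes rest on the HCT116 share that is also subtracted, and cells were matched for progress. Opposite leans of late and early classes are therefore partly built in.

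**Figure D1:**
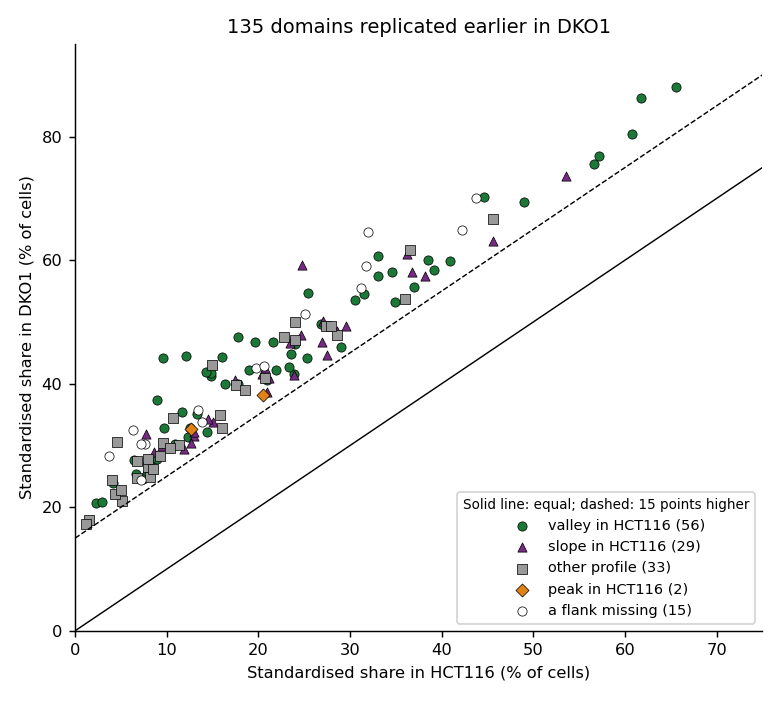
Standardised share (percent of cells, averaged over strata of progress) of each of the 135 domains in DKO1 (vertical axis) against HCT116 (horizontal axis), with marks for the profile shape in HCT116. All points lie above the dashed line of a 15-point difference because the rule set it, and most lie under 30% on the HCT116 axis.

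The domain with the highest sum of differences was also the longest, chr3:53840001-56480000, of 2.64 Mb. Its share was 35.4% in DKO1 and 11.7% in HCT116. In the 6 strata from 20 to 80% progress it was replicated in 8.75, 21.98, 29.0, 34.3, 52.4 and 65.8% of DKO1 calls and in 0.446, 1.61, 4.17, 12.4, 21.03 and 30.5% of HCT116 calls, so the lines did not meet at any stage. Most of the domain was replicated in 47 of 203 DKO1 cells (23.2%; interval of 17.5 to 29.6%) and in 6 of 321 HCT116 cells (1.87%; interval of 0.689 to 4.02%). These counts of cells, here and below, take no account of progress or of the choice of the domain. It is a deep trough between early neighbours: the 5 bins at either side had shares of 84.8 and 81.0% in DKO1 and 71.9 and 73.8% in HCT116. Inside it, single bins ran from 19.2 to 68.8% in DKO1 and from 0.417 to 53.6% in HCT116. The widest gap was in its middle part, in the bin starting at 55520001, with 36.1% in DKO1 and 0.833% in HCT116.

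Chromosome 4 held the next pair. At chr4:10560001-12480000 the share was 44.5% in DKO1 and 12.1% in HCT116, and most of the domain was replicated in 80 of 203 DKO1 cells (39.4%; interval of 32.6 to 46.5%) and in 23 of 312 HCT116 cells (7.37%; interval of 4.73 to 10.9%). By stratum DKO1 had 21.6, 30.5, 28.6, 51.0, 59.1 and 76.0% and HCT116 2.47, 5.47, 4.79, 11.1, 25.2 and 23.5%, so DKO1 cells were ahead from early S phase on. The bin starting at 11760001 had the largest difference of any bin in the domains, with 58.8% in DKO1 and 9.85% in HCT116. At chr4:22720001-24400000 the mean difference was the largest of all domains, 34.6 points, with a share of 44.1% in DKO1 and 9.57% in HCT116. Here the strata gave 4.76, 16.8, 27.1, 64.0, 75.4 and 76.8% in DKO1 and 3.32, 5.16, 6.70, 12.8, 12.6 and 16.8% in HCT116: the lines were close at 20 to 30% progress and parted most from 50% on. Most of this domain was replicated in 86 of 203 DKO1 cells (42.4%; interval of 35.5 to 49.5%) and in 15 of 314 HCT116 cells (4.78%; interval of 2.70 to 7.76%). Its flanks stood at 41.6 and 50.3% in DKO1 and 33.8 and 44.6% in HCT116, so a trough of the HCT116 profile was almost level with its left flank in DKO1.

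The domain at chr13:87040001-89040000, of 2 Mb, was among the latest. Its share was 28.3% in DKO1 and 3.75% in HCT116, and no HCT116 stratum exceeded 6.87%, while DKO1 had 52.2% at 60 to 70% progress and 64.7% at 70 to 80%. Code 0 took 11.3% of its DKO1 calls, the highest part of any domain in that line, and 3.09% of its HCT116 calls. Its difference of 24.5 points was 17.8 points with code 0 counted as unreplicated and 14.4 points at 30 to 70% progress without the cells that had over 1% of bins at code 0. At chr10:116000001-118080000 the share was 42.3% in DKO1 and 19.01% in HCT116. It was about level under 40% progress in DKO1, with 18.3% at 20 to 30% and 17.6% at 30 to 40%, and reached 88.5% in DKO1 and 46.4% in HCT116 at 70 to 80%. At chr9:117600001-119280000, which adjoins an early region on its left side, the share was 43.1% in DKO1 and 14.97% in HCT116. The gap there was widest at 60 to 70% progress, with 76.7% in DKO1 and 25.5% in HCT116.

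**Figure D2:**
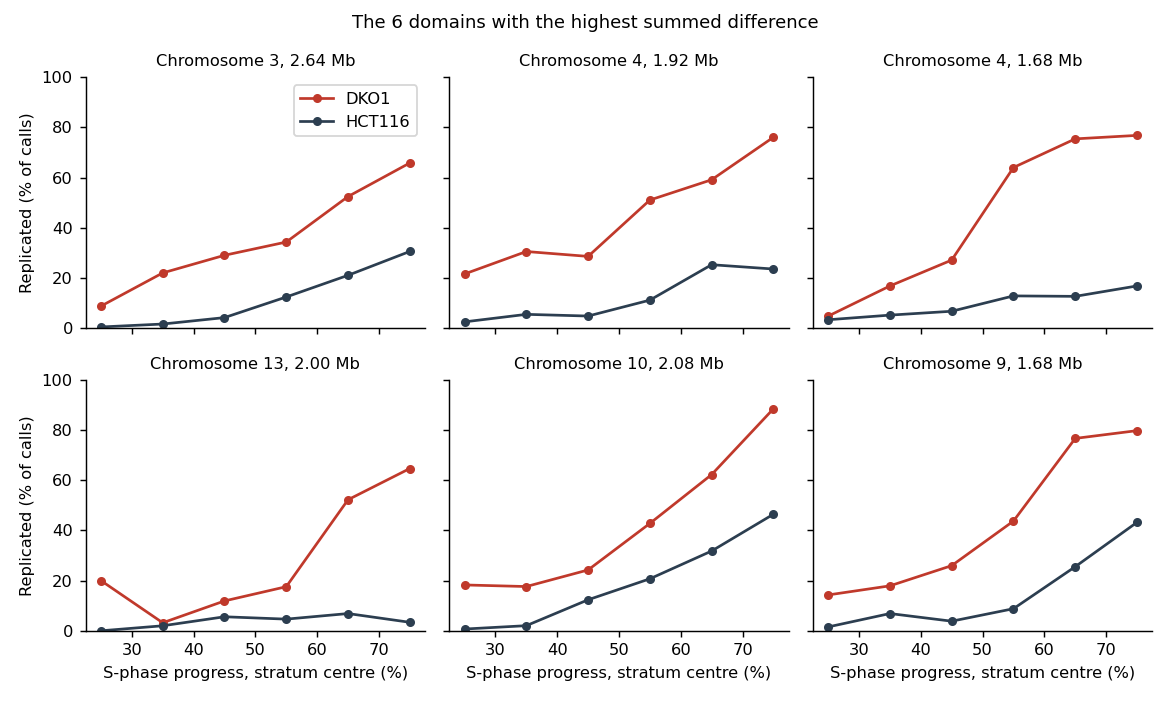
Percent of calls replicated in each 10-point stratum of S-phase progress for the 6 domains with the highest summed difference, DKO1 in red and HCT116 in dark blue, 1 library per line. DKO1 lies above HCT116 in every stratum of each panel, with gaps that widen to the later strata in most of them.

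The other 4 of the 10 with the highest sums lay on chromosomes 6, 3 and 13. At chr6:71920001-73680000 the share was 41.3% in DKO1 and 14.8% in HCT116, and the flanks were within 1 point of each other between the lines, at 48.5 and 77.6% in DKO1 and 49.3 and 78.3% in HCT116, so the gap lay in the trough between them. At chr3:18400001-19920000 the share was 37.3% in DKO1 and 8.90% in HCT116; most of this domain was replicated in 65 of 204 DKO1 cells (31.9%; interval of 25.5 to 38.7%) and in 3 of 320 HCT116 cells (0.938%; interval of 0.194 to 2.72%). At chr6:140080001-142080000, of 2 Mb, it was 27.7% in DKO1 and 6.38% in HCT116, and no bin came near early timing: they ran from 22.4 to 34.3% in DKO1 and from 3.41 to 17.5% in HCT116. At chr13:109200001-110960000 it was 47.8% in DKO1 and 24.6% in HCT116, on a slope between a late left flank and an early right flank.

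Some shorter domains had mean differences as high as the long ones. At chr2:19280001-20000000, of 0.72 Mb, the share was 59.2% in DKO1 and 24.8% in HCT116. It sits on a steep border: its left flank, of which 3 of 5 bins belong to the next domain, was at 33.0% in DKO1 and 2.24% in HCT116 and its right flank at 84.9% in DKO1 and 83.5% in HCT116. Most of it was replicated in 122 of 195 DKO1 cells (62.6%; interval of 55.4 to 69.4%) and in 58 of 317 HCT116 cells (18.3%; interval of 14.2 to 23.0%). At chr17:69840001-70480000 the share was 64.6% in DKO1 and 31.9% in HCT116, with a gap already in early S phase, 37.6% in DKO1 and 2.21% in HCT116 at 20 to 30% progress. The remaining members of the 10 with the highest means were chr13:36400001-37280000 (47.6% in DKO1 and 17.8% in HCT116), chr12:13600001-14240000 (54.7% in DKO1 and 25.4% in HCT116), chr19:36800001-37760000 (44.4% in DKO1 and 15.98% in HCT116) and chr20:37840001-38720000 (41.9% in DKO1 and 14.3% in HCT116). All 4 were troughs of the HCT116 profile. In this order they lay 5.99, 12.1, 24.1 and 13.7 points under the mean of their flanks in DKO1 and 28.4, 35.4, 41.5 and 32.4 points under it in HCT116.

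The extremes of timing behaved differently within S phase. The 5 domains with the highest HCT116 share were at chr3:46240001-46800000 (88.0% in DKO1 and 65.6% in HCT116), chr3:123760001-124240000 (86.3% in DKO1 and 61.7% in HCT116), chr19:43200001-43840000 (80.4% in DKO1 and 60.7% in HCT116), chr1:111280001-111840000 (76.8% in DKO1 and 57.2% in HCT116) and chr4:7200001-7840000 (75.6% in DKO1 and 56.6% in HCT116). All 5 were troughs of the HCT116 profile inside early regions, and their gap was widest under 40% progress: at 30 to 40% progress they were replicated in 53.7 to 86.1% of DKO1 calls and 16.6 to 25.4% of HCT116 calls, and at 60 to 70% in 92.0 to 100% of DKO1 calls and 92.1 to 97.9% of HCT116 calls. At chr3:123760001-124240000, nearly all of the difference lay between 20 and 50% progress, with 86.1% in DKO1 and 18.7% in HCT116 at 30 to 40%. At 70 to 80% the value was 87.5% in DKO1 and 92.3% in HCT116. That stratum has 8 DKO1 and 13 HCT116 cells, too few to read an order. The 5 with the lowest HCT116 share were at chr3:20640001-21040000 (17.3% in DKO1 and 1.19% in HCT116), chr1:49840001-50320000 (18.0% in DKO1 and 1.47% in HCT116), chr3:26080001-26960000 (20.7% in DKO1 and 2.29% in HCT116), chr13:38240001-39360000 (20.9% in DKO1 and 2.90% in HCT116) and chr13:87040001-89040000, described above. Of the domain chr3:26080001-26960000, most was replicated in 23 of 204 DKO1 cells (11.3%) and in 0 of 321 HCT116 cells, which allows a share of up to 0.935% by the limit of 3 cells and up to 1.14% by the exact interval.

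Neighbouring domains formed wider blocks in a few places. On chromosome 2, 3 runs between 16720001 and 20000000 were parted by gaps of 0.16 Mb: chr2:16720001-18080000 (34.5% in DKO1 and 10.7% in HCT116), chr2:18240001-19120000 (30.5% in DKO1 and 4.58% in HCT116) and chr2:19280001-20000000, given above. Code 0 took a higher part of the calls in these 3 than in all bins, from 5.96 to 6.46% in DKO1 and from 1.28 to 2.09% in HCT116. Further along, 4 runs between 75360001 and 79360000 had shares of 50.2, 26.5, 24.3 and 32.7% in DKO1 and 27.0, 7.97, 4.01 and 12.7% in HCT116. The last of them, chr2:78640001-79360000, is a local peak within late chromatin in both lines. On chromosome 19, chr19:51920001-53280000 (41.0% in DKO1 and 20.8% in HCT116) and chr19:53680001-54560000 (58.0% in DKO1 and 36.8% in HCT116) are the opposite slopes of a late block whose centre had a share of 17.2% in DKO1 and 3.92% in HCT116.

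Through S phase the domains kept a lead in DKO1 that moved with their timing. Averaged over all 135, the 6 strata gave 11.9, 21.02, 31.7, 46.4, 65.8 and 79.5% in DKO1 and 1.75, 4.09, 10.4, 21.7, 36.9 and 51.7% in HCT116. In 95 domains DKO1 was higher in all 6 strata and in 39 it was higher in 5; the remaining 1 is chr3:123760001-124240000. For the 70 domains under 20% in HCT116 the gap grew to the end: it was 4.84 points at 20 to 30%, 33.7 at 60 to 70% and 40.6 at 70 to 80%. For the 52 at 20 to 40% it was largest at 50 to 60%, with 29.9 points, and for the 13 at 40% or above at 30 to 40%, with 36.7 points. The stratum of 70 to 80% holds only 8 DKO1 and 13 HCT116 cells, yet weighs as much as any other in the choice of domains. Of all 135 domains, 51 had their largest gap there. A rough size of the lead comes from comparing strata: in 42 domains the DKO1 value at 50 to 60% progress was at or above the HCT116 value at 70 to 80%, and in 44 the DKO1 value at 40 to 50% was at or above the HCT116 value at 60 to 70%.

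In the HCT116 profile the domains were mostly troughs and slopes, and in DKO1 the troughs were shallower. Shape was read from the mean share of the domain and of the 5 bins at each side, with a margin of 5 points: a valley lies below both flanks, a peak above both, and a slope between them. In 16 domains the flanks hold bins of another domain, which were themselves chosen as higher in DKO1. Of the 120 domains with both flanks, 28 were valleys in DKO1, 49 slopes, 4 peaks and 39 none of these. In HCT116, 56 were valleys, 29 slopes, 2 peaks and 33 none of these. Of the 56 HCT116 valleys, 27 were still valleys in DKO1, 5 had become slopes and 24 were level with at least 1 flank within the margin; all 56 were shallower in DKO1. Their depth below the mean of the flanks averaged 13.5 points in DKO1 (SD 9.26) and 29.5 points in HCT116 (SD 11.2). The flanks themselves were higher in DKO1 by a mean of 6.27 points. The rule picks bins that are low in HCT116 relative to DKO1, and a run ends where a bin falls short of 15 points or has no value. The valleys differed by at least 16.9 points and the mean of their flanks by at most 15.1. That all 56 were shallower is therefore largely built into the choice of members.

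At the centre of the valleys the mean share was 42.9% in DKO1 and 18.8% in HCT116; at 1.44 Mb to the left it was 67.9% in DKO1 and 66.8% in HCT116, and at 1.44 Mb to the right 66.4% in DKO1 and 64.9% in HCT116. The lines thus came within a few points of each other in the early regions around the valleys. On the 29 slopes they did so on the early side, where at 0.96 Mb from the centre the share was 83.1% in DKO1 and 82.1% in HCT116. At the same distance on the late side it was 22.6% in DKO1 and 12.2% in HCT116. The median gain of the flank was 6.15 points on the early side and 11.8 points on the late side. Counted outwards from the edges of all domains, the mean difference of bins outside them was 12.3 points in the nearest bin, 6.99 in the third, 3.59 in the fifth and 1.13 in the tenth, at 0.8 Mb. The decay from the edge is partly set by the threshold.

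**Figure D3:**
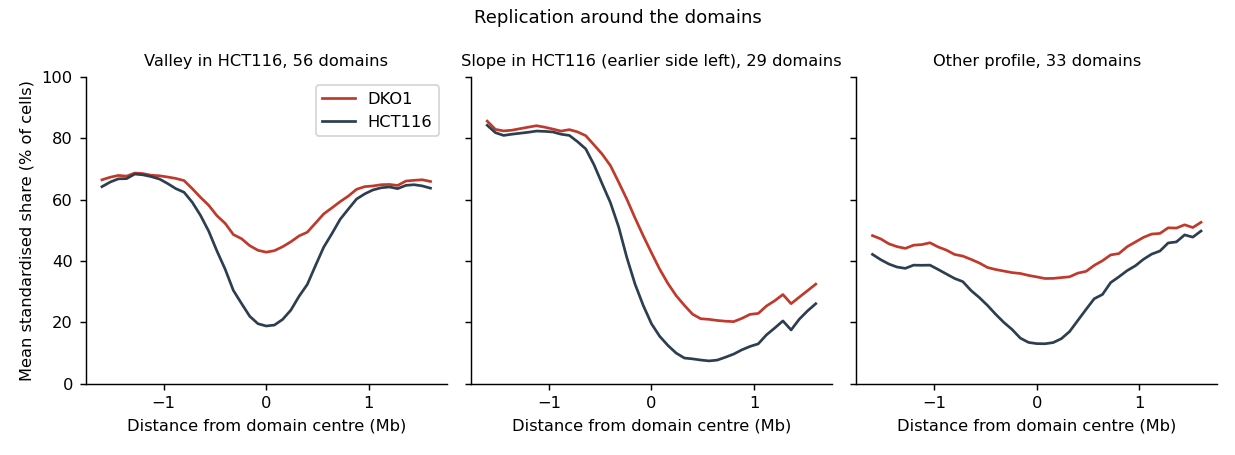
Mean standardised share (percent of cells) by distance from the domain centre in Mb, for domains that are valleys, slopes or neither in HCT116, DKO1 in red and HCT116 in dark blue; slopes are turned so that their earlier side is on the left. The lines run together in the early surroundings of the valleys and separate in the trough, and on the slopes DKO1 stays above HCT116 on the late side.

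The few local peaks are of another kind. In DKO1 the domain at chr3:103760001-104480000 stood at 27.5% between flanks of 14.04 and 17.6%, while in HCT116 it stood at 6.72% between flanks of 3.07 and 10.6%. At chr16:76800001-77600000 the DKO1 share was 29.5% between 19.4 and 14.6%, against 10.4% between 4.78 and 6.05% in HCT116. The peaks present in both lines were chr2:78640001-79360000 (32.7% in DKO1 and 12.7% in HCT116) and chr6:161280001-162080000 (38.2% in DKO1 and 20.5% in HCT116). These 4 are each 0.72 or 0.8 Mb long and lie in late chromatin. Of the 4, all but the domain on chromosome 2 were named after their values were seen. Cells with over 1% of bins at code 0 were also left out, at 30 to 70% progress. The difference at chr16:76800001-77600000 was then 2.78 points, against 19.2 by the rule. The peaks on chromosomes 3, 2 and 6 then differed by 34.3, 19.9 and 18.4 points.

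The mirrored rule, which asks for at least 15 points less in every bin, gave 159 domains that were later in DKO1, with the same median length of 0.720 Mb. Over all bins, 2157 (7.80%) were that much lower. Those domains had a mean share of 48.4% in DKO1 and 70.4% in HCT116. In the HCT116 profile the sets were mirror images: the 120 earlier domains with both flanks held 2 peaks and 56 valleys, and the 147 later ones 85 peaks and 0 valleys. Both sets were chosen on these profiles, so the contrast is a description. The sets mostly lay apart, which the rule favours in part, since bins beside an earlier domain were also higher in DKO1 on average. Only 3 earlier domains had a later one within 1 Mb, at chr3:134480001-135280000, chr5:65840001-66400000 and chr11:123600001-124320000, and the median distance to the nearest was 10.5 Mb. No like count was made for bins outside the domains. The median leaves out chromosomes 16, 19 and 21, which had 5, 5 and 2 earlier domains and no later one. Chromosome 13 had 9 earlier and 1 later domain, chromosome 19 had 5 earlier and 0 later, and chromosome 7 had 6 earlier and 20 later.

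The lead was seen across the DKO1 cells. For each cell the percent of called domains that were mostly replicated (over 50% of the domain's called bins) was counted. At 40 to 50% progress the 56 DKO1 cells had 9.63 to 51.1% of the domains replicated, with a median of 27.3%, and the 61 HCT116 cells had 0.741 to 25.8%, with a median of 5.93%. At 50 to 60% the medians were 44.8% in DKO1 (range 25.9 to 63.6%) and 14.8% in HCT116 (range 3.70 to 43.3%). At 60 to 70% they were 66.9% in DKO1 and 29.3% in HCT116. In each of the 6 strata every DKO1 cell lay above the HCT116 median and no HCT116 cell above the DKO1 median, while the ranges overlapped in 5 of the strata. From 20 to 30% up to 70 to 80% progress, 9 of 12, 36 of 42, 32 of 56, 27 of 49, 31 of 39 and 8 of 8 DKO1 cells lay above all HCT116 cells of their stratum. The same cells chose the domains. Cells under 20% progress were not used by the rule: the 1 such DKO1 cell had 0.746% of its called domains replicated, 1 domain, and the 4 such HCT116 cells had 0, which is too few cells to compare.

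**Figure D4:**
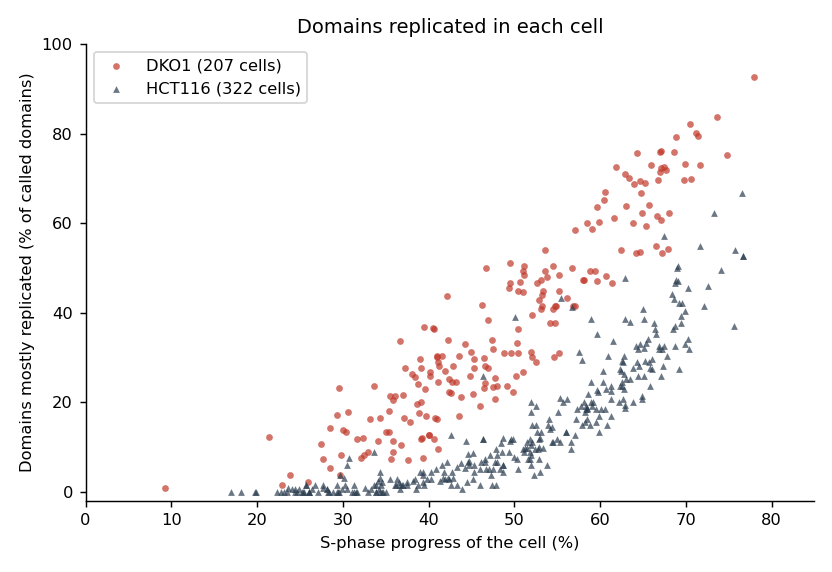
Percent of called domains mostly replicated in each single cell against the S-phase progress of the cell (percent of called bins replicated), DKO1 as red circles and HCT116 as dark triangles. The DKO1 cells form a band above the HCT116 cells from 30% progress on, with some overlap at its lower edge.

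Pairs of distant domains shared little of their state, but cells differed in how many domains they had replicated. With each domain's state taken relative to its mean in the stratum, pairs of domains on different chromosomes correlated across cells with a mean Pearson's r of 0.033 in DKO1 (8503 pairs, 206 cells) and 0.046 in HCT116 (8383 pairs, 318 cells). These points share the cells' progress within a stratum. Pairs on the same chromosome more than 2 Mb apart had a mean of 0.072 in DKO1 and 0.081 in HCT116, and pairs 0.16 to 2 Mb apart 0.22 in DKO1 and 0.16 in HCT116. The 6 pairs with gaps of at most 0.16 Mb had 0.27 in DKO1 and 0.26 in HCT116. Near neighbours thus shared more of their state than distant domains in both lines.

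Single domains were often caught in the middle of replication. Pairs of a cell and a domain were called unreplicated with under 20% of the domain's called bins replicated, partial with 20 to 80% and replicated with over 80%. Averaged over strata, 30.7% of the pairs were replicated in DKO1 and 11.2% in HCT116, 24.6% in DKO1 and 20.8% in HCT116 were partial, and 44.7% in DKO1 and 67.9% in HCT116 were unreplicated. The replicated class differed more between the lines than the partial one, which the rule favours because it chose bins replicated more often in DKO1. The order of the partial share turned within S phase: at 30 to 40% progress it was 22.7% in DKO1 and 6.15% in HCT116, and at 60 to 70% it was 30.6% in DKO1 and 38.4% in HCT116. In DKO1 the partial share was higher in longer domains, and in HCT116 it was highest in those of middle length: it was 34.1% in DKO1 and 21.02% in HCT116 for the 9 of 20 bins or more, 29.1% in DKO1 and 24.5% in HCT116 for the 49 of 10 to 19 bins, and 20.6% in DKO1 and 18.5% in HCT116 for the 77 of 5 to 9 bins. Partly replicated domains of 10 or more bins without an uncalled bin were sorted by whether their first and last bins were replicated. Exactly 1 of these end bins was replicated in 71.5% of 4003 DKO1 pairs and 66.2% of 4536 HCT116 pairs. Both end bins were replicated in 19.2% in DKO1 and 26.1% in HCT116, and neither in 9.34% in DKO1 and 7.65% in HCT116.

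**Figure D5:**
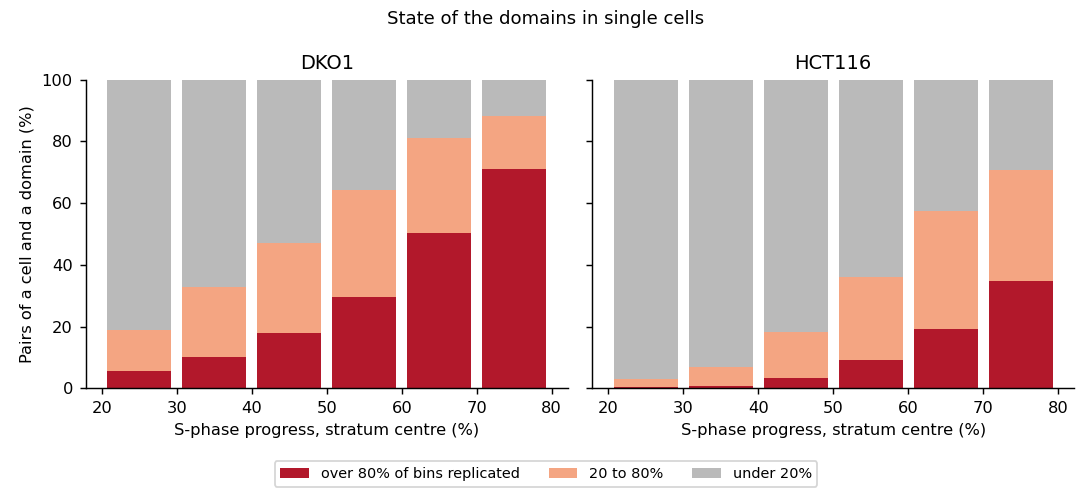
Percent of pairs of a cell and a domain in 3 states, by stratum of S-phase progress, in DKO1 (left) and HCT116 (right); colours stand for over 80%, 20 to 80% and under 20% of the domain's called bins replicated. At every stage the replicated class is larger in DKO1, which the rule favours, and the partial class of HCT116 grows to 60 to 70% progress.

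A domain was replicated more often in cells whose flanks were replicated, and more often in DKO1 in each arrangement of flanks. For the 120 domains with both flanks, each flank of 5 bins was called replicated with over 50% of its called bins replicated. With both flanks replicated, the domain between them was still mostly unreplicated in 26.3% of pairs in DKO1 (1594 of 6978 pairs, percentages averaged over strata) and 63.8% in HCT116 (4569 of 8489). With 1 flank replicated, the domain was replicated in 35.0% of pairs in DKO1 and 11.9% in HCT116. With neither, it was replicated in 6.84% in DKO1 (379 of 6923) and 2.45% in HCT116 (160 of 13578). In the valleys, a trough left unreplicated between replicated flanks was seen in 30.5% of such pairs in DKO1 and 67.3% in HCT116. On the slopes the domain was replicated beside 1 replicated flank in 37.3% of pairs in DKO1 and 15.8% in HCT116. The rule chose the domains as more often replicated in DKO1 and made no such demand of their flanks. The order of the lines in each arrangement is therefore largely built in. Cells of a library are not replicates, so these shares carry no test.

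Over the 120 domains with both flanks, few replicated domains stood alone in either line. Among pairs in which the domain was mostly replicated, both flanks were replicated too in 58.6% in DKO1 and 62.2% in HCT116, 1 flank in 36.2% in DKO1 and 32.2% in HCT116, and neither in 5.23% in DKO1 and 5.59% in HCT116, averaged over strata. The last pair of values rests on few HCT116 pairs early in S phase, 22 at 20 to 30% progress, and its order turned when that stratum was left out (4.75% in DKO1 and 3.07% in HCT116). At 30 to 40% progress, where DKO1 had 832 such pairs and HCT116 111, isolated replicated domains made up 10.3% in DKO1 and 3.60% in HCT116. By shape in HCT116, the valleys stood alone in 2.62% of DKO1 pairs and 5.75% of HCT116 pairs. The slopes did so in 2.94% in DKO1 and 2.07% in HCT116. Domains that were neither of these nor a peak did so in 9.94% in DKO1 and 7.28% in HCT116. At 20 to 30% progress HCT116 had only 11 valley pairs, of which 27.3% stood alone, 5 slope pairs and 6 of the others. Without averaging over strata, valleys stood alone in 96 of 4544 DKO1 pairs and 25 of 3161 HCT116 pairs. No order of the lines is read from these values.

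The domains were set beside other parts of the DKO1 genome picked for a like DKO1 share. That share averages the same strata, so a similar course of both sets is largely built in. The 33 domains of 8 to 12 bins with a DKO1 share of 25 to 50% averaged 37.3%, and 488 windows of 10 bins outside all domains in that range averaged 37.6%. In DKO1 the domains were mostly replicated in 12.4% of pairs at 30 to 40% progress and 61.6% at 60 to 70%, and the windows in 10.96% at 30 to 40% and 60.6% at 60 to 70%. The partial state took 24.7% of pairs in the domains and 30.7% in the windows. In HCT116 the same domains had a share of 15.6%, against 41.8% for the windows. This contrast follows from the rule, since the windows lie outside all domains.

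Uncalled bins moved with the comparison. Code 0 took 2.43% of the calls in domain bins in DKO1 and 1.01% in HCT116, against 2.82% in DKO1 and 1.08% in HCT116 in all other bins, so the domains were called no less completely than the rest. With code 0 counted as unreplicated, the rule gave 190 domains, the mean difference over the 135 was 22.5 points, and 134 of them still differed by 15 points or more. In 14 domains code 0 exceeded 5% of the calls in DKO1, of which 5 lay on chromosome 13. When cells with over 1% of bins at code 0 were left out, after which 61 DKO1 and 188 HCT116 cells remained at 30 to 70% progress, all 135 domains still had a higher share in DKO1 and their mean difference was 20.5 points. Of these, 101 still differed by 15 points or more and 118 by 10 or more, and the lowest difference was 2.04 points, at chr3:26080001-26960000. Whole chromosomes of single cells can carry extra or missing copies: chromosomes more than 15 points from their relation to progress were 4.60% of those in DKO1 and 1.61% in HCT116. With these left out, the mean difference was 21.6 points. Copy number changes shorter than a chromosome were not tested.

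Near the threshold, the domains just inside were chr10:100560001-100960000 (lowest bin 15.01 points, shares of 42.3% in DKO1 and 21.9% in HCT116), chr16:65760001-66240000 (lowest bin 15.04 points, shares of 46.8% in DKO1 and 26.9% in HCT116) and chr10:85600001-86080000 (lowest bin 15.04 points, shares of 44.7% in DKO1 and 27.5% in HCT116). The stretches of 5 bins just outside were chr2:168160001-168560000 (lowest bin 14.82 points, shares of 24.0% in DKO1 and 6.72% in HCT116), chr13:32240001-32640000 (lowest bin 14.71 points, shares of 56.9% in DKO1 and 37.7% in HCT116) and chr14:57200001-57600000 (lowest bin 14.68 points, shares of 38.2% in DKO1 and 21.5% in HCT116). All 6 are 5 or 6 bins long, and membership at this edge turns on fractions of a point.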

How the data were processed

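Single-cell replication sequencing was analysed in the S-phase libraries of DKO1 and HCT116, 1 library each; the G1 libraries and other assays of the study were not analysed here. The authors deposited 1 table with a whole-number code (0, 1 or 2) for each 80 kb bin and cell, called binarised output of a hidden Markov model in its name; the codes are not defined in the file. Cell Ranger, bedtools 2.26.0, SAMtools 1.10 and, as builds, hg19 and GRCh37 are named per the submitters' processing notes, while the software of the model and any filter on cells were not given in the sources used here. Read depth is unknown, and the calls hold no counts, so the number of cells per stratum limits the precision.

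From these codes, progress, standardised shares, runs, flanks and cell states were computed in Python 3.11.15 with numpy 2.4.6, pandas 2.3.3 and scipy 1.17.1, as the report describes. Bins were used where all 6 strata had called cells in both lines. A stretch was mostly replicated with over 50% of its called bins coded 2. Search for runs was checked on simulated data in which each bin of a cell was drawn on its own. With no link between neighbouring bins, the check cannot say how often runs arise without a shift. Exact (Clopper-Pearson) intervals are at 95%, and a count of 0 was given a limit of 3 cells. Doublets were not removed, since the codes hold no measure for it.

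The domains, the lists and the settings were chosen with earlier results of these data known. Named domains are the 10 with the highest sum and the 10 with the highest mean of bin differences, the 5 longest, the 5 with the highest and the 5 with the lowest HCT116 share, the one with the highest mean difference of each profile shape, and 3 on each side of the 15-point limit; the domains of the groups on chromosomes 2 and 19, those near a later domain and 3 of the 4 peaks were named after their values were seen. No genes were assigned to the domains and no sequence is printed, since the gene tables used here are on another build.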

Additional observations from a re-analysis of the deposited data

Results flagged for a closer look

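Code 0, read as uncalled and outside the main measurement, took 2.43% of the calls in the bins of the domains in DKO1 and 1.01% in HCT116. It drew attention because it is a signal in calls that the shares leave out and is higher in the line being compared with its parent. In 14 domains it exceeded 5% of the DKO1 calls, and 5 of these lay on chromosome 13.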

How the results depend on the processing

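The number of domains moved with the limits of the rule: it was 304 with a threshold of 10 points, 68 with 20 points, 219 with runs of at least 3 bins, 58 with at least 10 bins and 42 when kept to bins that at least 99% of cells had called, against 135. In the other 11 settings run it was 113 to 190, the highest with code 0 counted as unreplicated; those subtracting the mean difference of the chromosome or the median of bins of like HCT116 share, and the one leaving out outlying chromosomes, were chosen after seeing the data. Runs found without the cells that had over 1% of bins at code 0 overlapped 101 of the 135 domains. The mean difference over the domains was 18.3 to 23.0 points in the 9 alternatives run, against 21.6. The isolated share, DKO1 minus HCT116, was -0.359 points and turned to 1.28 with flanks of 10 bins, 1.104 with limits of 80 and 20%, 1.52 without matching for progress and 1.68 with strata from 30 to 80% (chosen after seeing the data), so no order of the lines is read from it; the cause was not tested. The partial share, 3.76 points higher in DKO1, was 3.004 with limits of 10 and 90%, 6.03 in cells with few uncalled bins and 6.01 without matching. No paired analysis was possible because each line has 1 library. The thin strata, with 8 DKO1 cells at 70 to 80% progress, limit every share.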
